A study of Mus musculus and Acomys cahirinus with 84 samples.

Results

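Skin fibroblasts of the African spiny mouse, *Acomys cahirinus*, were compared between 2 doses of gamma irradiation, 20 Gy and 10 Gy, both collected at 12 d. The comparison holds every library that the labels place in these groups, 4 at 20 Gy and 4 at 10 Gy, out of 28 *A. cahirinus* libraries and 84 libraries in the whole series. The libraries were paired by replicate number, because library names give libraries of one number the same animal code. The cells were primary cultures, the RNA was polyA selected, and no allele, transgene or drug is named for any group. The labels give neither the strain, age and sex of the animals nor the passage of the cells. The 2 unirradiated groups at 12 d, labelled untreated and untreated passaged, had 4 libraries each, as did the 20 and 10 Gy groups at 24 h and the same doses at 12 d in mice labelled C56BL6 and in wild mice. All 12 d libraries belong to one batch in the labels and all 24 h libraries to another. The series' title concerns the resistance of spiny mice to chemically induced skin tumours, and this comparison asks how the higher dose differed from the lower one at the later of the 2 time points.

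Ionizing radiation breaks DNA, and the breaks activate the transcription factor p53. p53 induces the cyclin-dependent kinase inhibitor p21, encoded by Cdkn1a, and its own antagonist Mdm2. With p21 present, the retinoblastoma-family proteins and the DREAM complex hold down genes of DNA replication and mitosis. Fibroblasts that do not resume division can become senescent, a state known for loss of lamin B1 and for secretion of cytokines, proteases and growth factors.

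The 8 libraries held between 28620471 and 41825275 counts, and 10 Gy replicate 3 was the deepest. Between 15856 and 16209 genes had at least 1 count at 20 Gy and between 15508 and 15597 at 10 Gy, without overlap between the doses. Values below are in CPM, the count of a gene scaled by the normalized size of its library. A floor of 3 counts, scaled by total counts, lay at 0.072 to 0.105 CPM. All 10 fibroblast markers were detected in every library, with summed levels of 21500 to 34700 CPM at 20 Gy and 23600 to 36200 CPM at 10 Gy. The 6 skeletal muscle markers were also detected in every library. Their summed level at 20 Gy was 7940, 1270, 7400 and 7690 CPM in replicates 1 to 4, and at 10 Gy it was 6340, 1820, 5470 and 6710 CPM. The muscle transcription factor Myog stood at 230 to 1040 CPM at 20 Gy and at 337 to 929 CPM at 10 Gy, so the cultures labelled as fibroblasts carried muscle transcripts, least of all in replicate 2. Of these 6 markers only Pax7, a factor of muscle stem cells, was called, at -0.84 ± 0.11 (SE) on the log2 scale (adjusted p = 0.00315). Immune markers were low, with Cd3e at 0 in all 8 libraries, Ptprc at 0 in 5, and summed levels of 5.68 to 7.81 CPM at 20 Gy and 4.02 to 7.12 CPM at 10 Gy. Summed keratinocyte markers were 8.96 to 23.7 CPM at 20 Gy and 9.94 to 21.3 CPM at 10 Gy. Summed endothelial markers were 3.96 to 5.81 CPM at 20 Gy and 2.19 to 4.54 CPM at 10 Gy, and summed mural markers were 343 to 410 CPM and 276 to 367 CPM. The melanocyte and Schwann list summed to 6.68 to 16.7 CPM at 20 Gy and 6.47 to 9.5 CPM at 10 Gy, with Tyr at 0 in all 8 libraries. The adipocyte list summed to 22 to 49.8 CPM and 13.8 to 24.5 CPM. Markers called higher at 20 Gy included 4 of 10 fibroblast markers (Pdgfra, Lum, S100a4 and Dcn), Pecam1 of the endothelial list, Cspg4 of the mural list, S100b of the Schwann list and Pparg and Lep of the adipocyte list. The part of these cell types in the results below was not tested. In these bulk samples, fewer cells of a type and less RNA per cell cannot be told apart.

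At 20 Gy, genes of cell division were far lower than at 10 Gy. Among the genes named below, log2 fold changes of 20 against 10 Gy ran from -4.29 to 2.01. Of 13564 genes tested, 2426 passed an adjusted p of 0.05 with the replicate number as a block, a share of 17.9%. Of these, 1305 were lower at 20 Gy (9.62% of genes tested) and 1121 were higher (8.26%), and 2305 of the 2426 had the same direction in all 4 pairs. A change of at least 2-fold was found for 267 lower and 220 higher genes. The 8 libraries did not overlap between doses for 1224 genes (9.02%). The pairing mattered for these counts. Without the replicate block, 62 genes passed (0.457%), 60 lower and 2 higher, all of them also called with the block in the same direction. Every count also depended on which animals entered. Leaving out replicate 1, 3 or 4 gave 699, 573 and 566 genes, and leaving out replicate 2 gave 4932. Of these, 693, 572, 554 and 2409 were among the 2426, for replicates 1, 3, 4 and 2 in that order. Without replicate 2, 2439 of 13588 genes were higher and 2493 lower. Gene list counts below from that fit stand beside these larger numbers.

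Replicate 2 stood apart in the dose difference itself. Across all tested genes, its log2 difference between doses correlated at 0.36 to 0.45 with those of the other replicates, which correlated at 0.7 to 0.8 with each other. The median log2 difference of the lower genes was -0.34 in replicate 2 and -0.5, -0.8 and -0.55 in replicates 1, 3 and 4. That of the higher genes was 0.33 in replicate 2 and 0.49, 0.86 and 0.67 in the others. These points share libraries with the calls and are given as a description. Results that rest on replicate 2 are given below with and without it.

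**Figure D1:**
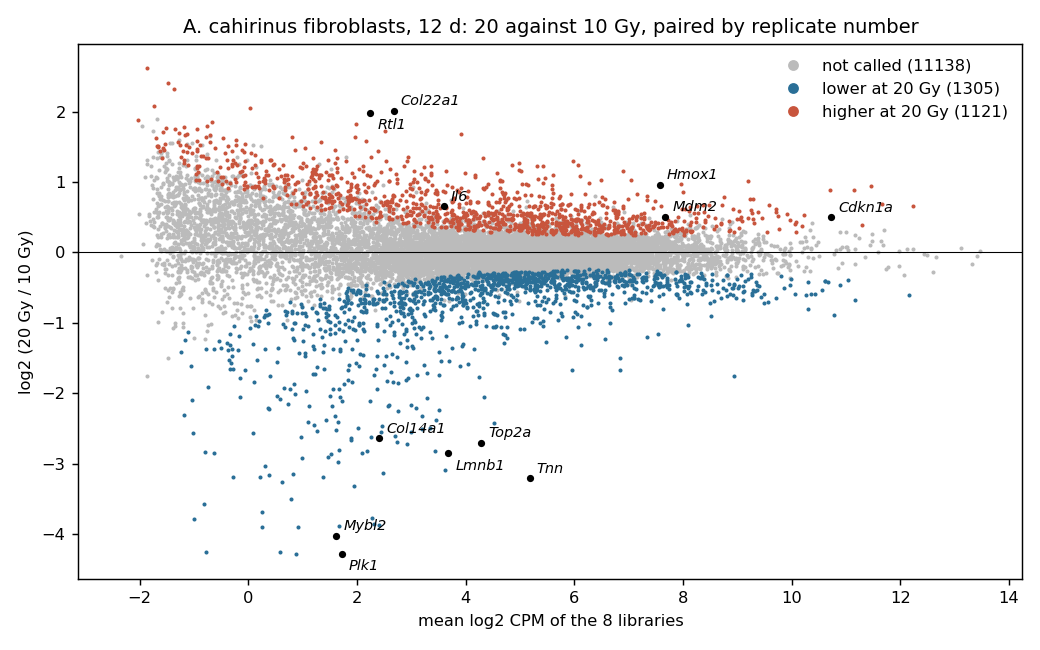
Each point is 1 of 13564 genes, with the mean log2 CPM of the 8 libraries on the x axis and the log2 fold change of 20 against 10 Gy on the y axis; colours mark the 1305 genes called lower and the 1121 called higher, and 12 genes are labelled. The lower genes reach past -4, while the higher ones named here stay near or below 2.

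The 10 genes with the lowest fold change were Kif2c, Plk1, Depdc1a, Mybl2, Pbk, Kif23, Cdc20, Kif11, Ccna2 and Troap, and 20 Gy did not overlap 10 Gy for any of them. Plk1 encodes a kinase that drives entry into and progress through mitosis. Its level was 0.574, 0.47, 1.2 and 0.854 CPM at 20 Gy in replicates 1 to 4, against 13.4, 5.79, 26.3 and 16.8 CPM at 10 Gy. Every library at 20 Gy was thus below every library at 10 Gy, and Plk1 was 19.4-fold lower, with a log2 fold change of -4.28 ± 0.17 (SE) and an adjusted p of 8.73e-06. Kif2c, a kinesin that takes apart microtubule ends, stood at 0.287, 0.157, 0.901 and 0.398 CPM against 7.03, 4.26, 12.3 and 9.44 CPM. Its log2 fold change of -4.29 ± 0.22 (adjusted p = 2.56e-05) was the lowest of all genes that met the naming rule. The lowest Kif2c library held 5 counts. Mybl2 encodes B-Myb, a transcription factor that acts with the MuvB core on mitotic genes. It was at 0.479, 0.439, 1.53 and 0.825 CPM at 20 Gy and at 11.2, 5.79, 21 and 14.7 CPM at 10 Gy, a log2 fold change of -4.02 ± 0.18 (adjusted p = 1.12e-05). Replicate 3 was the highest of its group for all 3 genes at both doses, and replicate 2 the lowest. Depdc1a, a protein of mitotic cells, differed by -4.25 ± 0.23. The mitotic kinase gene Pbk and the central spindle kinesin Kif23 both differed by -3.89, and Cdc20, an activator of the anaphase-promoting complex, by -3.87 ± 0.22. The spindle motor Kif11 differed by -3.85 ± 0.24, cyclin A2 (Ccna2) by -3.78 ± 0.24 and the spindle protein gene Troap by -3.49 ± 0.26. Each of the 10 fell in 4 of 4 pairs, which the naming rule required. Each also passed whichever replicate was left out, with the highest adjusted p, 0.0052, for Troap. Without the replicate block, 9 of the 10 still passed, and Troap had an adjusted p of 0.052.

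Many promoters of mitotic genes carry a CHR element (cell cycle genes homology region), through which the DREAM complex and B-Myb with MuvB bind, placed downstream of a CCAAT box that binds NF-Y. No *A. cahirinus* genome was used here, so promoters of the mouse genes of the same name were read from RefSeq (GRCm38.p6), over the 250 bases before the first listed start of each symbol. Windows were found for 8 of the 10 genes. Both strands were searched for the CHR letters TTTGAA, read as TTCAAA on the other strand, and for CCAAT, read as ATTGG. The CHR letters were in 4 of the 8 windows and CCAAT in 6. Depdc1a (chr3:159495183-159495432, + strand), Cdc20 (chr4:118437344-118437593, - strand) and Kif11 (chr19:37376132-37376381, + strand) are shown because each holds both, in the short spacing typical of this arrangement. The sequences run 5′ to 3′ along the gene's strand up to the base before the start, and capitals mark the matches.
Depdc1a: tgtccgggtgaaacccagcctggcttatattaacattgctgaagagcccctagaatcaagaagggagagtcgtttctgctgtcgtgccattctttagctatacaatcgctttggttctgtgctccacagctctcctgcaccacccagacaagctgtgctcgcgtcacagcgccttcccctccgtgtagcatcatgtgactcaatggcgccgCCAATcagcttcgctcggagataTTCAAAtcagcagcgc
Cdc20: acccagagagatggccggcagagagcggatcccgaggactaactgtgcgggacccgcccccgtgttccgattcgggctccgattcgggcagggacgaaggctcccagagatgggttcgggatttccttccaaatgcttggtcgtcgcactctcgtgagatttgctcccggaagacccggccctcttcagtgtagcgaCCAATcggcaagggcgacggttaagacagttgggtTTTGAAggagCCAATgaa
Kif11: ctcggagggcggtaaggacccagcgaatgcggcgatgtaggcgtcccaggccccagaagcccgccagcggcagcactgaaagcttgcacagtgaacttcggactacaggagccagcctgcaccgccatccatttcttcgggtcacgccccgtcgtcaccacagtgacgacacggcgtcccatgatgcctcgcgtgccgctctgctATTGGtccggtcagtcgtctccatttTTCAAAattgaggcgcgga
The CHR letters began 16 bases before the start in Depdc1a, 18 in Cdc20 and 19 in Kif11, and the CCAAT letters nearest upstream of them began at 39, 53 and 45 bases. Mybl2 had a window and neither match. Among the genes lower at 20 Gy by at least 2-fold, 213 of 267 had a mouse window, of which 18.3% held the CHR letters, 52.6% held CCAAT and 13.1% held both. The shares over the 10752 windows of all genes tested were 10.3%, 35.8% and 3.9%, and over all 27025 symbols with a window 16.3%, 34.5% and 5.7%. Over the 1053 windows of all 1305 lower genes, whatever their fold, the shares were nearer to those of the genes tested, at 12%, 39.7% and 6.3%. For all genes called higher they were 10.8%, 32.3% and 3.2%. These are matches in the mouse sequence and describe neither the spiny mouse promoters nor binding.

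Mitosis and kinetochore genes as a list were lower at 20 Gy: 37 of 43 tested members were called lower and 0 higher, against 9.62% of all genes called lower. The list's median log2 fold change was -2.07, where that of all genes was 0, and its median within the pairs was -2.2, -0.98, -2.52 and -2.61 for replicates 1 to 4. For 35 of the 43 the doses did not overlap, against 9.02% of all genes. Top2a, the topoisomerase that separates sister DNA, was at 8.58, 3.07, 10.3 and 12.1 CPM at 20 Gy and at 47.7, 19.9, 83.2 and 74.1 CPM at 10 Gy. Its log2 fold change was -2.7 ± 0.11 (adjusted p = 8.73e-06), with every pair between -2.46 and -3. Mki67, which encodes the Ki-67 proliferation antigen, had 3.61, 3.35, 6.61 and 3.87 CPM at 20 Gy against 31.9, 15.2, 60.4 and 51 CPM at 10 Gy, a log2 fold change of -3.09 ± 0.21 (adjusted p = 0.000102). For both genes 10 Gy replicate 2 was the lowest of its dose, and still above every 20 Gy library. With no block 19 members were called. Leaving out a replicate gave 31 to 40.

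Cell-cycle regulators behaved alike, with 15 of 22 tested members lower and 2 higher and a median of -1.04. Of all genes, 9.62% were called lower and 8.26% higher. Ccnb2, a cyclin of mitotic entry, fell from 13.14 ± 7.28 CPM at 10 Gy (SD, n = 4) to 1.244 ± 0.399 CPM at 20 Gy, which is -3.32 ± 0.2 (SE) as a log2 fold change (adjusted p = 5.63e-05). Foxm1, which encodes a transcription factor of mitotic genes, changed by -1.6 ± 0.16 and E2f1, a transcription factor of S-phase genes, by -0.72 ± 0.09. The 2 members that rose were Ccnd1, which encodes cyclin D1, by 0.68 ± 0.15 (adjusted p = 0.0188), and Rbl2, which encodes the DREAM subunit p130, by 0.3 ± 0.07 (adjusted p = 0.0244). Neither passed without the replicate block or without replicate 1, 3 or 4, where 0 members were called higher. The lower calls numbered 5 without the block and 11 to 16 with a replicate left out.

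DNA replication and nucleotide supply genes were lower in 34 of 40 tested members and higher in 0, with a median of -0.78. Of all genes, 9.62% were called lower. Cdc6, a loader of the replicative helicase, had 0.223, 0.219, 0.519 and 0.342 CPM at 20 Gy and 3.78, 1.36, 7.18 and 5.22 CPM at 10 Gy, so the doses did not overlap (log2 fold change -3.69 ± 0.26, adjusted p = 0.000121). Mcm5, a helicase subunit, was at 2.36, 2.79, 3.82 and 3.61 CPM against 12.7, 7.46, 25.8 and 17.9 CPM (-2.25 ± 0.2, adjusted p = 0.000414). Rrm2, a subunit of ribonucleotide reductase, changed by -2.05 ± 0.3, the thymidine kinase gene Tk1 by -2.18 ± 0.21 and the sliding clamp gene Pcna by -0.68 ± 0.13. The list's calls fell to 4 without the replicate block and to 21, 19 and 17 without replicates 1, 3 and 4, and were 37 without replicate 2.

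Homologous recombination and Fanconi genes repair breaks and crosslinks with a sister copy of the DNA. Of 24 tested members 15 were lower, where 9.62% of all genes were, and 0 higher, with a median of -0.76. The nuclease gene Exo1 stood at 1.44, 1.1, 1.8 and 2.02 CPM at 20 Gy and at 6.2, 3.41, 10.8 and 6.89 CPM at 10 Gy (-2.05 ± 0.19, adjusted p = 0.00061). Bard1, the partner of Brca1, was at 0.67, 0.627, 1.23 and 0.911 CPM against 2.87, 1.91, 4.55 and 4.05 CPM (-1.94 ± 0.2, adjusted p = 0.000903). Brca1 itself changed by -2.32 ± 0.36. The doses did not overlap for Exo1 or Bard1, yet 0 members of the list passed without the replicate block. Without replicates 1, 3 and 4 the calls were 9, 8 and 7, and without replicate 2 they were 18.

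Of the nuclear lamina and HMG protein genes, 9 of 14 tested members were lower, where 9.62% of all genes were, and 0 higher. Lmnb1, which encodes lamin B1, was at 4.82, 4.14, 4.83 and 5.44 CPM at 20 Gy and at 29, 14.8, 60 and 50 CPM at 10 Gy. The 20 Gy libraries lay close together and all below 10 Gy, with a log2 fold change of -2.85 ± 0.25 (adjusted p = 0.000394), 7.22-fold lower. Lmnb2 was at 15.1, 13.3, 20.1 and 19.5 CPM against 37.6, 26.1, 55.3 and 51.1 CPM (-1.29 ± 0.1, adjusted p = 0.000205). The chromatin protein genes Hmgb2 and Hmga1 changed by -1.58 ± 0.23 and -0.91 ± 0.12. Only 1 member passed with no block, Lmnb1 (adjusted p = 0.0372), and with a replicate left out 6 to 10 did.

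**Figure D2:**
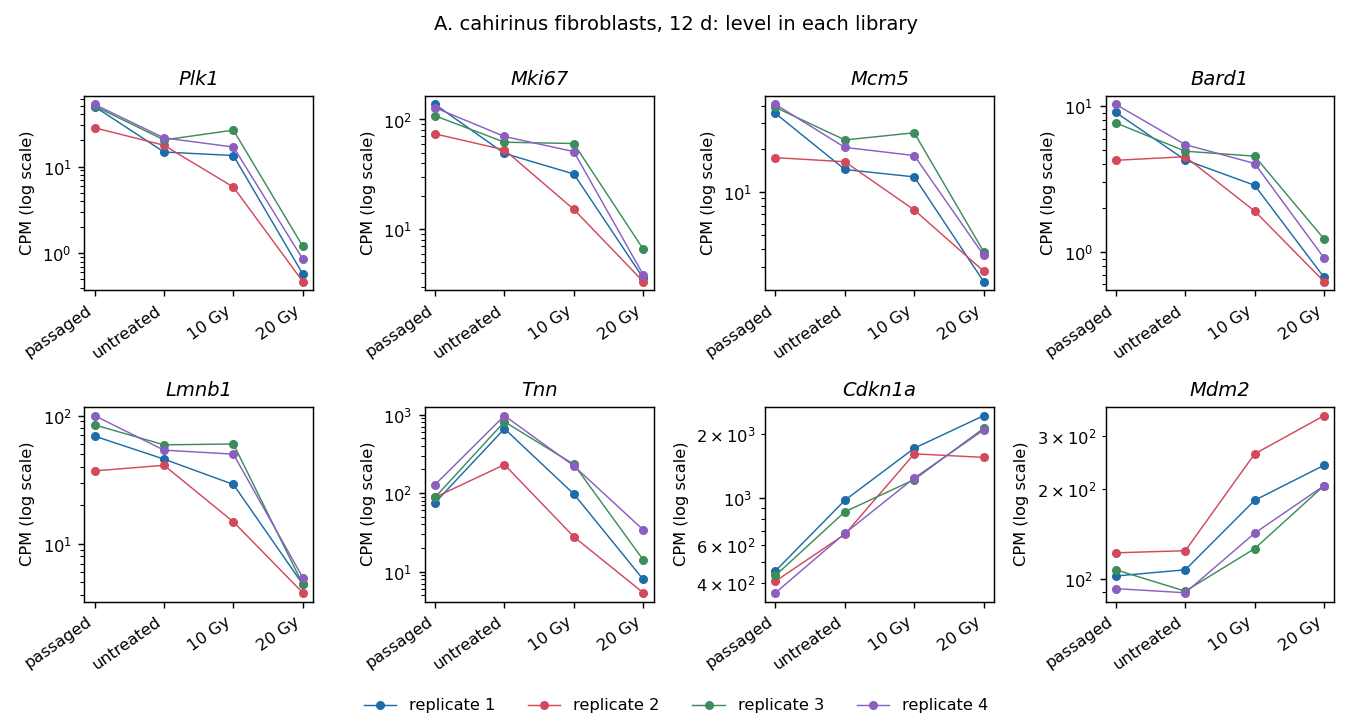
Level of 8 genes in CPM on a log axis in the 16 libraries of *A. cahirinus* at 12 d, by group; each point is a library and lines join libraries of one replicate number. For Plk1, Mki67, Mcm5, Bard1 and Lmnb1 the 4 libraries at 20 Gy lie below all others, while Cdkn1a and Mdm2 are higher at 20 Gy than at 10 Gy in 3 and 4 pairs.

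Targets of p53 were modestly higher: 14 of 28 tested members were called higher and 0 lower, against 8.26% of all genes called higher, and the median log2 fold change was 0.25. Mdm2, the ubiquitin ligase that restrains p53, was at 240, 352, 205 and 205 CPM at 20 Gy and at 183, 262, 126 and 142 CPM at 10 Gy. It rose in each pair although the doses overlapped, by 0.51 ± 0.08 (adjusted p = 0.0069). Eda2r, a receptor gene, had 79.6, 55.2, 71.1 and 65.3 CPM against 53.6, 38, 39.9 and 44.4 CPM without overlap (0.62 ± 0.08, adjusted p = 0.00293). Pmaip1, which encodes the pro-apoptotic protein Noxa, rose by 0.85 ± 0.13 (adjusted p = 0.00523) and Ccng1 by 0.57 ± 0.09. Cdkn1a was at 2430, 1550, 2120 and 2080 CPM at 20 Gy and at 1710, 1610, 1220 and 1240 CPM at 10 Gy. It was higher in replicates 1, 3 and 4 and differed by -0.05 on the log2 scale in replicate 2, with a fitted log2 fold change of 0.5 ± 0.14 (adjusted p = 0.041). Without replicate 2 its change was 0.68 (adjusted p = 0.000122), and without replicates 1, 3 and 4 the adjusted p was 0.131, 0.165 and 0.172. Gdf15, a stress cytokine gene on the same list, showed a log2 fold change of -0.27 ± 0.26 that was not called (adjusted p = 0.494). Without replicate 2 it was called lower, at -0.6 (adjusted p = 0.0318). Of the 28 targets, 0 passed without the replicate block, and 6, 5 and 5 were called higher without replicates 1, 3 and 4.

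Among 8 tested inhibitors of cyclin-dependent kinases, Cdkn1a and Cdkn2b rose and Cdkn3 fell, where 8.26% of all genes were higher and 9.62% lower. Without replicate 2, where 2439 of 13588 genes were higher and 2493 lower, 3 inhibitors were higher and 4 lower. With no block 0 inhibitors were called in either direction. Cdkn2b, which encodes p15, was at 68.5 to 120 CPM at 20 Gy and at 47.2 to 97.3 CPM at 10 Gy, higher in 4 of 4 pairs with overlapping doses (0.4 ± 0.09, adjusted p = 0.0206). Its call ended without replicates 1, 3 and 4, at adjusted p of 0.0862, 0.109 and 0.103. Cdkn3, a phosphatase gene expressed in dividing cells, fell by 1.02 ± 0.14 on the log2 scale (adjusted p = 0.00342). Cdkn2a, the locus of p16 and p19, had 130, 152, 88 and 152 CPM against 105, 162, 59.5 and 80.1 CPM, a log2 fold change of 0.42 ± 0.14 that missed the threshold (adjusted p = 0.0723). Without replicate 2, the only pair in which Cdkn2a was lower at 20 Gy, its change was 0.59 (adjusted p = 0.000215). DESeq2, the fit of all 12 d groups together and the fit with no expression filter also called it higher.

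The secretory list had 17 of 41 tested members higher, where 8.26% of all genes were, and 6 lower, where 9.62% were, with a median of 0.53. Il6 was at 18.3, 18.7, 12.2 and 12.8 CPM at 20 Gy and at 11.2, 17.9, 6.46 and 6.44 CPM at 10 Gy, higher in each pair (0.66 ± 0.16, adjusted p = 0.0234). Without replicate 2 the change was 0.86 (adjusted p = 4.13e-05), and without replicates 1, 3 and 4 the adjusted p was 0.085, 0.116 and 0.109. The chemokine gene Ccl7 stood at 35.9, 50.2, 27.9 and 37.2 CPM against 24.5, 36.3, 20.5 and 23.7 CPM (0.53 ± 0.08, adjusted p = 0.00541). Ccl2, another chemokine gene, rose by 0.61 ± 0.11, the growth factor gene Ereg by 1.16 ± 0.18 and the collagenase gene Mmp13 by 0.8 ± 0.17. The lower members included Plaur, Serpine2 and Plat, of the plasminogen activator system, and the binding protein genes Igfbp4 and Igfbp5. Plaur, the receptor of urokinase, was at 3.89, 3.7, 4.37 and 5.15 CPM against 7.48, 7.19, 11 and 9.5 CPM without overlap (-1.03 ± 0.13, adjusted p = 0.00293). With no block 0 members were called in either direction. Without replicates 1, 3 and 4, higher calls were 7, 3 and 3 and lower calls 3, 3 and 2, and without replicate 2 they were 22 and 10.

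Of 19 tested interferon-stimulated genes 1 was called higher and 0 lower, which is close to the background of 8.26%. Another 8 members were below the expression filter and 4 symbols had no row. Rtp4 was the member called, at 4.56, 12, 3.06 and 4.27 CPM against 4.12, 8.28, 1.91 and 2.73 CPM (0.5 ± 0.15, adjusted p = 0.049), and leaving out any replicate ended its call, at adjusted p of 0.083, 0.0645, 0.172 and 0.168 for replicates 1 to 4. Ddx58, which encodes the RNA sensor RIG-I, had a log2 fold change of 0.41 ± 0.13 (adjusted p = 0.0515). It was called higher by DESeq2 (adjusted p = 0.0363), with RLE scaling (0.0425) and in the fit of all 12 d groups (0.0179).

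**Figure D3:**
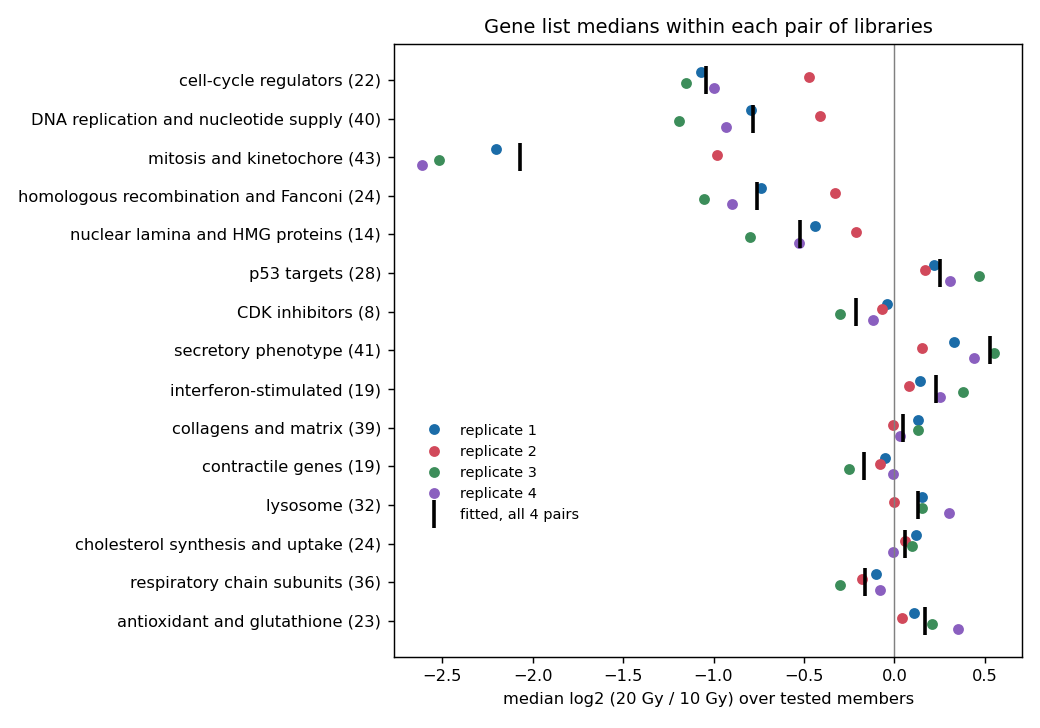
Median log2 fold change of 20 against 10 Gy over the tested members of 15 gene lists (number tested in brackets), within each pair of libraries (coloured points) and in the fit over 4 pairs (black ticks). In the 5 lists of cell-cycle, replication, mitosis, recombination and lamina genes all 4 pairs lie below 0 and replicate 2 lies nearest to it.

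Of 39 tested matrix genes 9 were higher and 6 lower, where 8.26% and 9.62% of all genes were. Without replicate 2 the counts were 13 and 7. Tnn, which encodes the matrix protein tenascin N, was at 7.94, 5.36, 14.1 and 34 CPM at 20 Gy and at 97.2, 27.7, 232 and 222 CPM at 10 Gy. The ranges overlapped, since 10 Gy replicate 2 lay below 20 Gy replicate 4, but each pair fell, and the log2 fold change was -3.21 ± 0.25 (adjusted p = 0.000205). Untreated cells held 667.5 ± 317 CPM of Tnn (SD, n = 4) and passaged cells 95.12 ± 23.1 CPM. Col14a1, a collagen gene of the fibril-associated class, was at 1.47, 0.439, 1.88 and 13.1 CPM against 7.45, 3.58, 17.8 and 62.3 CPM (-2.64 ± 0.18, adjusted p = 0.000106). Replicate 4 held the most Col14a1 in all 4 groups, so the doses overlapped while every pair fell by at least 2.25. The fibulin gene Fbln2 changed by -1.75 ± 0.25 and the proteoglycan gene Vcan by -0.77 ± 0.15. Among the higher members, the basement membrane collagen gene Col4a1 rose by 0.62 ± 0.12, Col11a1 by 0.59 ± 0.08, and the small proteoglycan genes Ogn and Lum by 0.8 ± 0.11 and 0.62 ± 0.11. The main fibrillar collagen gene Col1a1 was not called (-0.27, adjusted p = 0.117). With no block, 0 matrix genes were called higher and 1, Fbln2, lower. Leaving out replicates 1, 3 and 4 left 4, 3 and 3 higher and 4 lower in each case. Tnn and Col14a1 had adjusted p of 0.125 and 0.3996 in the fit with no block.

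Contractile genes had 5 of 19 tested members lower, where 9.62% of all genes were lower, and 0 higher, among them the smooth muscle genes Cnn1 (-0.31 ± 0.08, adjusted p = 0.034) and Actg2 (-0.38 ± 0.11, adjusted p = 0.0395). With relative log expression (RLE) scaling 2 were called, and leaving out replicate 1, 3 or 4 left 0, at adjusted p of 0.157, 0.162 and 0.092 for Cnn1 and 0.107, 0.176 and 0.075 for Actg2. Leaving out replicate 2 gave 7 lower and 4 higher, where 2493 of all 13588 genes were lower and 2439 higher. With no block 0 contractile genes were called.

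The 10 genes with the highest fold change were Col22a1, Rtl1, Inpp5j, Rxrg, Col24a1, Esm1, Magel2, Cfp, Mss51 and Ngfr. Each was higher in 4 of 4 pairs, which the naming rule required, and the doses overlapped for all but Cfp. Col22a1, a collagen gene of tissue junctions such as that of muscle and tendon, was at 27.8, 1.44, 40.8 and 11.3 CPM at 20 Gy and at 11.3, 1.36, 3.41 and 2.43 CPM at 10 Gy. Its log2 fold change was 2.01 ± 0.43 (adjusted p = 0.0168), and it was 2.33 (adjusted p = 6.32e-06) without replicate 2, where the pair differed by 0.08. Mss51, a gene of muscle mitochondria, stood at 13.8, 0.815, 28.8 and 12 CPM against 8.38, 0.545, 6.41 and 3.72 CPM (1.44 ± 0.25, adjusted p = 0.00805). The retinoid receptor gene Rxrg was at 24.6, 1.1, 30 and 9.71 CPM against 9.18, 0.851, 5.34 and 2.85 CPM (1.72 ± 0.25, adjusted p = 0.00463). The phosphatase gene Inpp5j was at 14.7, 1.28, 19.5 and 7.06 CPM against 6.75, 0.409, 3.65 and 1.71 CPM (1.83 ± 0.22, adjusted p = 0.00224). These 4 genes were lowest at both doses in replicate 2, the replicate whose summed skeletal muscle markers were lowest, at 1270 CPM against 7400 to 7940 CPM in the other 20 Gy libraries. The summed muscle markers were higher at 20 Gy than at 10 Gy in replicates 1, 3 and 4 and lower in replicate 2, and their part in these results was not tested.

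The other 6 of these genes did not share that order. Rtl1, a retrotransposon-derived gene expressed from the paternal allele in mammals, was at 8.26, 12.7, 14.7 and 5.29 CPM against 2.63, 7.53, 1.29 and 1.05 CPM (1.98 ± 0.37, adjusted p = 0.0112). Magel2, another paternally expressed imprinted gene, was at 7.43, 10, 11.2 and 4.01 CPM against 2.91, 5.24, 1.74 and 1.53 CPM (1.58 ± 0.26, adjusted p = 0.00709). Both were highest at 10 Gy in replicate 2, and Magel2 lay between 0 and 0.209 CPM in the 4 libraries of untreated cells. Esm1, which encodes the secreted proteoglycan endocan, was at 4.79, 16, 7.86 and 3.93 CPM against 2.08, 9.57, 1.36 and 0.659 CPM (1.64 ± 0.3, adjusted p = 0.0101). Ngfr, the p75 neurotrophin receptor gene, rose by 1.36 ± 0.22 (adjusted p = 0.00633) and Col24a1, a fibrillar collagen gene, by 1.69 ± 0.35 (adjusted p = 0.0155). Cfp, which encodes the complement protein properdin, was at 5.62, 3.98, 5.46 and 4.95 CPM against 2.63, 2.89, 0.787 and 1.56 CPM (1.45 ± 0.32, adjusted p = 0.0189). Of the 10 highest genes 0 passed without the replicate block, at adjusted p of 0.167 for Cfp to 0.542 for Esm1. Without replicate 4, 6 of them lost their call, at adjusted p of 0.0885 for Col22a1, 0.0605 for Rtl1, 0.0551 for Col24a1, 0.0509 for Esm1, 0.0922 for Cfp and 0.0577 for Mss51. Without replicate 3, Col22a1 and Cfp lost theirs, at 0.0521 and 0.0556.

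**Figure D4:**
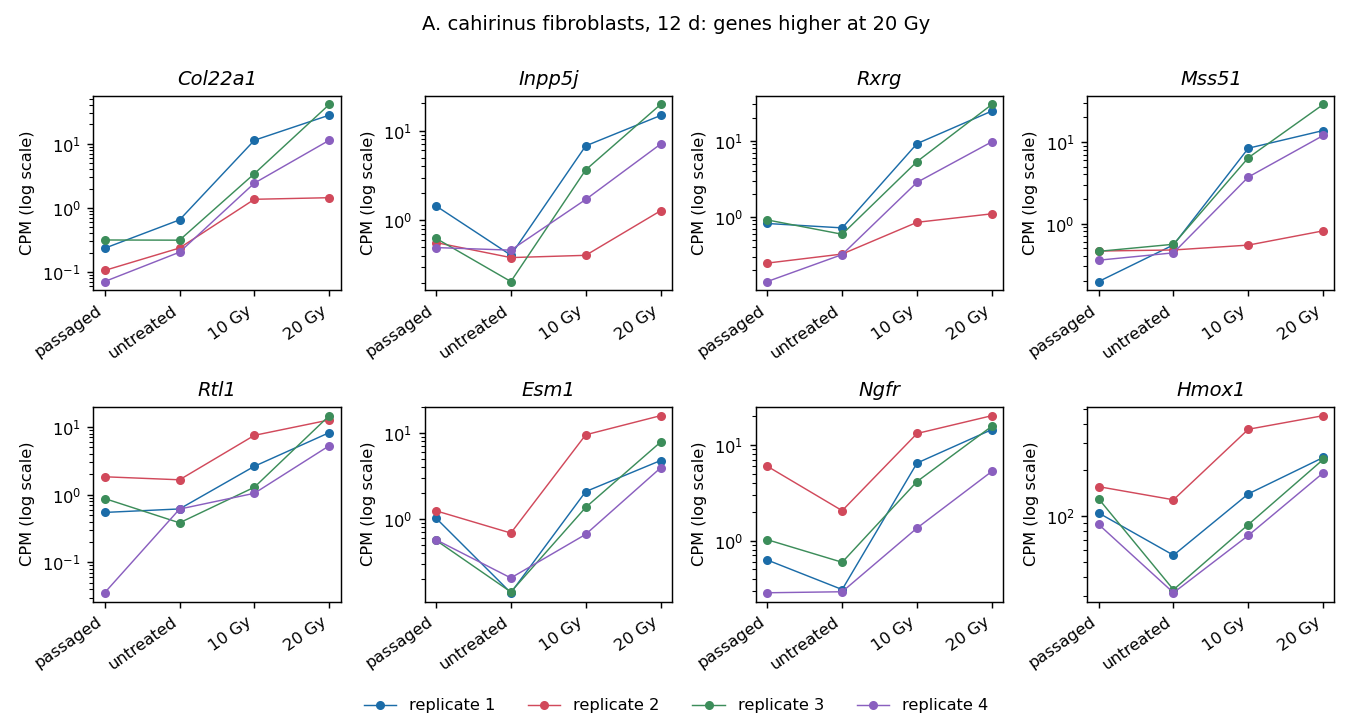
Level of 8 genes that were higher at 20 Gy, in CPM on a log axis, in the 16 libraries of *A. cahirinus* at 12 d, with lines joining libraries of one replicate number. Replicate 2 is the lowest at both doses for Col22a1, Inpp5j, Rxrg and Mss51, and the highest at 10 Gy for Rtl1, Esm1, Ngfr and Hmox1.

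The lists of metabolic and organelle genes moved less. Antioxidant and glutathione genes had 5 of 23 tested members higher and 1 lower, where 8.26% and 9.62% of all genes were. Without replicate 2 they numbered 10 higher and 3 lower, and without replicates 1, 3 and 4 they numbered 1, 1 and 0 higher. Hmox1, the haem-degrading enzyme, was at 242, 454, 235 and 192 CPM at 20 Gy and at 140, 370, 88.2 and 74.9 CPM at 10 Gy, higher in each pair with overlapping doses (0.96 ± 0.17, adjusted p = 0.00911). It lost its call without replicate 4 (adjusted p = 0.0567) and without the replicate block (adjusted p = 0.583). Gclm, a subunit of the enzyme that limits glutathione synthesis, rose by 0.38 ± 0.08 (adjusted p = 0.0173). Lysosome genes had 4 of 32 tested members higher, close to the 8.26% of all genes, and 0 lower. The smallest p-values were those of the hydrolase genes Fuca1 (0.36 ± 0.09, adjusted p = 0.0276) and Lipa (0.34 ± 0.09, adjusted p = 0.0365). Without replicate 2, 14 lysosome genes were higher and 1 lower, where 2439 of all 13588 genes were higher and 2493 lower. Without replicate 1, 3 or 4, 0 lysosome genes were called. Of 24 cholesterol genes 3 were higher and 1 lower, near or below the 8.26% and 9.62% of all genes. The lower one was the reductase gene Dhcr7 at -0.58 ± 0.12 (adjusted p = 0.0133). Respiratory chain subunits had 4 of 36 tested members lower, close to the background of 9.62%, and 0 higher, with Cyc1 at -0.36 ± 0.08 (adjusted p = 0.0167) and Sdhb at -0.41 ± 0.09 (adjusted p = 0.0174). The fit of all 12 d groups together called 12 respiratory chain genes lower, where 1818 of all 13701 genes were lower. Leaving out replicate 2 called 10, where 2493 of 13588 genes were lower. For Gclm, Fuca1, Lipa, Cyc1 and Sdhb, leaving out replicate 1, 3 or 4 ended the call in each case, and for Dhcr7 leaving out replicate 3 or 4 did, at adjusted p of 0.0571 to 0.16. Without the block 0 genes of these 4 lists were called.

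The 2 doses were set beside cells that had not been irradiated. The contrasts of 20 and of 10 Gy with untreated cells share libraries with the comparison of doses and with each other, so only their own values are given. Against untreated cells, 39 of 43 mitosis and kinetochore genes were lower at 20 Gy (median -2.52, where 25.7% of all genes were called lower), and 7 of 44 were lower and 1 higher at 10 Gy (median -0.43, where 13.4% of all genes were called lower). DNA replication genes were lower in 36 of 40 at 20 Gy and in 6 of 40 at 10 Gy. Mki67 differed from untreated cells by -3.77 at 20 Gy (adjusted p = 3.25e-05) and by -0.7 at 10 Gy, which was not called (adjusted p = 0.062). Cdkn1a differed by 1.36 at 20 Gy (adjusted p = 0.000161) and by 0.86 at 10 Gy (adjusted p = 0.00336), and Il6 by 2.32 and 1.69, with both called. Tnn differed by -5.61 and -2.42, and Col22a1 by 5.64 and 3.54, again with both called. The contrast of 10 Gy with untreated cells called 3638 genes, 1175 without replicate 1, 1611 without replicate 3 and 379 without the replicate block. That of 20 Gy with untreated cells called 6623 genes, 4294 without replicate 1 and 4287 without the block.

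The contrast of passaged with untreated cells shares no library with the comparison of doses, though the cells carry the same animal codes. There 44 of 44 mitosis and kinetochore genes were higher in passaged cells, with a median log2 fold change of 0.78, where 23.2% of all genes were called higher. It called 6431 genes, and 3348 without the block. Of the 1305 genes lower at 20 Gy, 553 were higher in passaged cells, which is 42.4% of the former and 18.3% of the 3014 genes of the latter. Another 336 were lower in passaged cells (25.7% and 9.8%). Of all 12992 genes in that contrast 3417 were lower in passaged cells, a share close to that 25.7%. Mki67 was at 73.9 to 137 CPM in passaged cells and at 49.1 to 70 CPM in untreated cells, so the order of the 4 groups ran from passaged through untreated and 10 Gy to 20 Gy, with untreated and 10 Gy overlapping.

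At 24 h the same doses differed by far less. The contrast of 20 with 10 Gy at 24 h called 40 of 13242 genes, 36 higher (0.272%) and 4 lower, none by 2-fold, and 6 to 66 with a replicate left out. With no expression filter it called 92, of which 71 were higher and 21 lower. Without the replicate block 0 were called, with 55 below an unadjusted p of 0.05 in edgeR. Of the p53 targets 6 were higher and 0 lower, among them Mdm2 by 0.22 (adjusted p = 0.00844) and Cdkn1a by 0.2 (adjusted p = 0.025). Of the mitosis and kinetochore genes 5 were higher and 0 lower at 24 h, and Plk1 differed by 0.09 (adjusted p = 0.895). Time and batch cannot be told apart here, and no test compared 24 h with 12 d.

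The same pair of doses in mice served to ask whether the difference was larger in *A. cahirinus*. In C56BL6 mice 46 of 15463 genes were called, 11 of them lower at 20 Gy (0.0711%), and in wild mice 38 of 14770, 37 lower (0.251%). Both counts were 0 without the replicate block, where edgeR gave 300 and 37 genes an unadjusted p below 0.05. They ran from 0 to 194 and from 8 to 119 with a replicate left out. With no expression filter the counts were 545 (278 lower) in C56BL6 mice and 292 (264 lower) in wild mice. Of the mitosis and kinetochore genes, 3 of 44 were lower in C56BL6 mice (median -0.48) and 4 of 44 in wild mice (median -0.51). Mki67 differed by -0.72 ± 0.13 (SE, adjusted p = 0.0448) in C56BL6 mice and by -0.83 ± 0.16 (adjusted p = 0.0699) in wild mice. The direction was thus shared in these medians, at a smaller size.

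The difference of the dose changes was tested directly over symbols found once in each table. Against C56BL6 mice, 741 of 14216 genes differed, 451 with a lower change in *A. cahirinus* (3.17%) and 290 with a higher one (2.04%). Against wild mice, 964 of 14026 differed, 572 lower (4.08%) and 392 higher (2.79%). Mitosis and kinetochore genes had a lower change in 27 of 44 against C56BL6 mice and in 29 of 44 against wild mice, and a higher one in 0. For DNA replication genes the lower counts were 19 and 20 of 40, and for p53 targets 6 and 5 of 29 had a higher change. Plk1 changed by -0.56 ± 0.2 in C56BL6 mice and by -0.54 ± 0.11 in wild mice, and its change in *A. cahirinus* was lower than either by 3.74 on the log2 scale (adjusted p = 4.51e-05 and 2.58e-06). Mybl2 differed by -3.76 ± 0.26 from C56BL6 mice and Depdc1a by -3.78 ± 0.36 (adjusted p = 1.32e-05 and 0.000117). Lmnb1 differed by -2.64 ± 0.29 and -2.32 ± 0.28 (adjusted p = 0.000268 and 0.000681), Tnn by -2.76 ± 0.39 and -2.75 ± 0.4 (adjusted p = 0.00244 and 0.00276), and Il6 by 0.75 ± 0.18 and 0.7 ± 0.17 (adjusted p = 0.032 and 0.0298). Among genes that passed the interaction test and met the naming rule, the largest positive differences from C56BL6 mice were those of Mss51 (1.86 ± 0.45, adjusted p = 0.0314) and Cfp (1.63 ± 0.39, adjusted p = 0.0318). For Cdkn1a the differences were 0.51 ± 0.16 and 0.43 ± 0.16, neither called (adjusted p = 0.0855 and 0.129).

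Against wild mice the extremes among genes that passed the interaction test and met the naming rule were Cadps (-4.89 ± 1.06, adjusted p = 0.0261) and Prr32 (3.74 ± 0.78, adjusted p = 0.0158), with Col24a1 (1.99 ± 0.49, adjusted p = 0.0298) next to the latter. Cadps and Prr32 did not pass the expression filter in wild mice alone. Cadps showed no called dose change in *A. cahirinus* (0.16 ± 0.14, adjusted p = 0.464), while Prr32 rose by 0.57 ± 0.12 (adjusted p = 0.0163). Without the replicate block, 1 gene differed from C56BL6 mice and 0 from wild mice, while edgeR gave 902 and 584 genes an unadjusted p below 0.05. Leaving out *A. cahirinus* replicate 2 raised the counts to 2858 and 2884, and leaving out any other library number of either population lowered them to 262 to 372 and to 283 to 603. Wild replicates 1 and 4 shared every gene at the thresholds used: 0 genes were at 1 CPM or more in all 12 d libraries of one and below 0.1 CPM in all of the other, against 22 to 83 for the other 5 pairs of wild numbers. The same held for C56BL6 replicates 3 and 4, with 0 such genes against 6 to 14 for the other 5 C56BL6 pairs, and the 6 pairs in *A. cahirinus* had 0 to 2. Without C56BL6 replicate 3 or 4, 300 and 308 genes differed from C56BL6 mice. Without wild replicate 1 the count against wild mice was 283 and without replicate 4 it was 603.

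Among the genes chosen for these differences, Plk1 against wild mice and Mybl2 and Depdc1a against C56BL6 mice passed whichever number of either population was left out. The others did not, whatever the size of their difference. Cfp lost its call without any number except *A. cahirinus* replicate 2 (adjusted p of 0.0541 to 0.103), and Mss51 lost its call without *A. cahirinus* replicate 3 or 4 or any C56BL6 replicate (0.0607 to 0.113). Col24a1 lost its call without *A. cahirinus* replicate 1 or wild replicate 1, 2 or 3 (0.0581 to 0.0977), Cadps without *A. cahirinus* replicate 3 or any wild replicate (0.0518 to 0.0779), and Prr32 without wild replicate 4 (0.064).

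**Figure D5:**
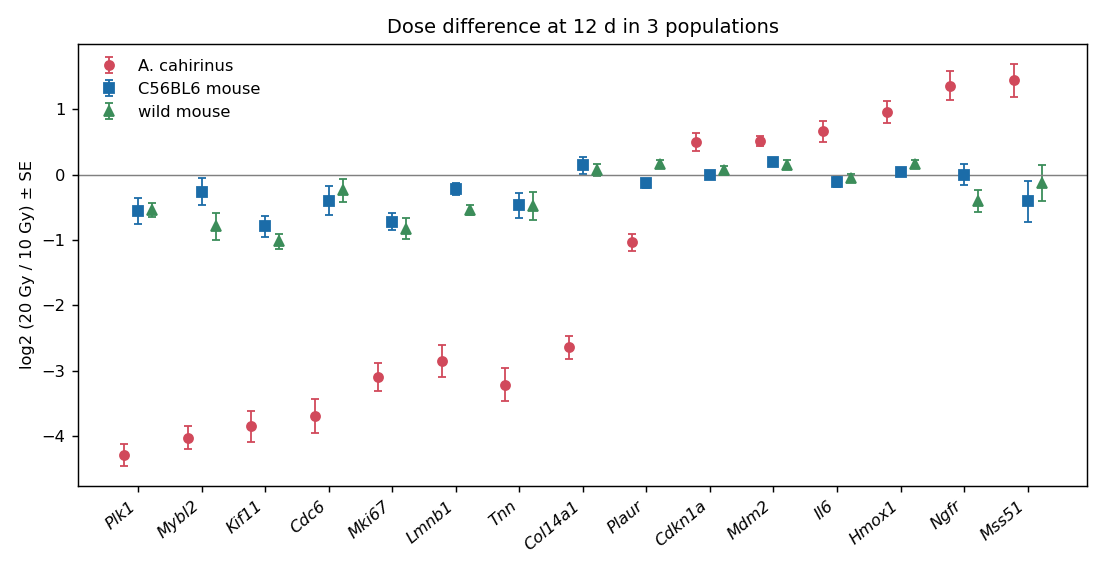
Log2 fold change of 20 against 10 Gy at 12 d (y axis, ± SE) for 15 genes in *A. cahirinus*, C56BL6 mice and wild mice, each fitted with 4 pairs of libraries. From Plk1 to Plaur the *A. cahirinus* points lie below both mouse points, and from Cdkn1a to Mss51 they lie above them.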

How the data were processed

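Polyadenylated RNA of primary skin fibroblasts was extracted with a PureLink kit and made into stranded mRNA libraries, per the labels. The authors deposited raw counts, made per gene with featureCounts 2.0.3 according to the file headers. Those headers name an AcoCah2 annotation, grouped by gene name, for *A. cahirinus*, and GRCm39, with gene identifiers, for mice. The submitters' processing notes name Trim Galore, HISAT2 and featureCounts. The recorded commands set no strand option, so a gene and an overlapping antisense gene cannot be told apart, and values of near-identical copies are uncertain. All 28 *A. cahirinus* and 56 mouse count columns were matched to libraries by name.

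The test was edgeR's (version 4.0.16, R 4.3.3), with filterByExpr, scaling by the trimmed mean of M values, the quasi-likelihood test (glmQLFit, glmQLFTest) and Benjamini-Hochberg adjustment over all genes tested, at a threshold of 0.05. Each fit held the libraries of its own groups and took the replicate number as a block, and "without the replicate block" names the fit that left it out. The numbers were taken to pair libraries because libraries of one number carry one animal code. Across genes, deviations from the group means correlated at 0.42 to 0.82 for libraries of the same number and at -0.72 to 0.33 for different numbers. Nothing says how cultures of one animal were divided. With the block, p-values measure how the difference between groups varied over these pairs of cultures. Without it, they measure the spread between the cultures of a group. Replicate libraries differed by 29.1 to 415 times the sampling noise over 12 pairs, and each counted as 1 sample. Interactions used 18109 symbols found once in each table, with scaling within tables. CPM levels of *A. cahirinus* at 12 d are counts scaled by library size times a trimmed mean of M values factor, taken over its 12 d groups. The floor of 3 counts uses total counts and covers counting error only. Per-pair log2 differences used a prior count of 2. Mouse symbols came from the GENCODE annotation for 56236 of 56980 identifiers. Scripts were tested on simulated data.

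Named genes were, among genes called with the same direction in all 4 pairs, a mean of at least 5 CPM in the higher group and a plain symbol, the 10 lowest and 10 highest in fold change; the 2 members of each of 15 gene lists with the smallest p; a panel of 7 genes; and for each interaction the 2 largest and 2 smallest differences. This gave 56 genes, not all of which are reported here, and other genes named were picked from the lists after their values were seen. The comparison, the gene lists and the rule were chosen with earlier results of these data known. Alternatives were no replicate block, RLE scaling, no expression filter, DESeq2 1.42.0 with its Wald test, all 12 d groups of *A. cahirinus* fitted together, and each replicate number left out in turn.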

Additional observations from a re-analysis of the deposited data

Results flagged for a closer look

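Among 112 sets of 4 libraries (56 named genes at 2 doses), 7 held a library far from the other 3, where chance alone would single out about 1 set in 20. At 10 Gy, replicate 2 was high for Esm1 (9.57 CPM against 0.659 to 2.08) and for Ddx58 (10.8 CPM against 5.08 to 5.34), and replicate 1 was high for Pmaip1 (31.1 CPM against 16.2 to 17.4). At 20 Gy, replicate 2 was high for Rtp4 (12 CPM against 3.06 to 4.56) and low for Cyc1 (73 CPM against 107 to 111). Replicate 4 was high for Col14a1 (13.1 CPM against 0.439 to 1.88) and replicate 3 for Mki67 (6.61 CPM against 3.35 to 3.87), both at 20 Gy.

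The dose change of 33 named genes of 55 tested differed from that in C56BL6 mice, and that of 38 of 55 from wild mice, by the interaction test. Over all genes, 741 of 14216 and 964 of 14026 differed. Apart from the panel, the named genes were chosen by their dose change in the same libraries or by the interaction test itself. Their high counts follow from that choice and are no evidence of a difference between populations. For the panel and the genes chosen for their difference, only values that passed the interaction test are listed here. Of the panel, Cdkn1a, Mdm2, Cdkn2a and Gdf15 passed against neither population. On the log2 scale, *A. cahirinus* minus C56BL6 mice was -3.74 for Plk1, -3.78 for Depdc1a, -3.76 for Mybl2, -2.64 for Lmnb1, -2.38 for Mki67, 0.75 for Il6, 1.63 for Cfp and 1.86 for Mss51. *A. cahirinus* minus wild mice was -3.74 for Plk1, -3.33 for Depdc1a, -3.24 for Mybl2, -2.32 for Lmnb1, -2.25 for Mki67, 0.7 for Il6, 1.65 for Cfp, 1.56 for Mss51 and 1.99 for Col24a1, and -4.89 for Cadps and 3.74 for Prr32, the 2 that were below the expression filter in wild mice.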

How the results depend on the processing

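With no replicate block, the 2426 genes called between doses became 62 and the 487 with at least a 2-fold change became 61, and the paired differences from C56BL6 and wild mice, 741 and 964 genes, became 1 and 0. With a replicate number left out, these 4 counts ran from 566 to 4932, from 203 to 877, from 262 to 2858 and from 283 to 2884, highest without *A. cahirinus* replicate 2 in each case. RLE scaling, no expression filter, DESeq2 and the fit of all 12 d groups (the last 2 for the dose contrast only) kept each count within 1.5 times, at 2400, 2697, 2661 and 3117 genes for the first. RLE scaling moved the median of all genes to 0.028 on the log2 scale and gave 1260 higher and 1140 lower genes. Of 56 named genes, 18 kept their side of the threshold without the block and 35 to 53 with a replicate left out; none of these settings turned the direction of a called gene. The cause of these shifts was not tested, beyond the smaller number of libraries. At this depth, genes near the floor, such as Cdc6, Depdc1a and Kif2c at 20 Gy, rest on few counts, with 7, 6 and 5 in their lowest libraries.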
